A study of Rattus norvegicus with 12 samples.

Results

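The sciatic nerve, the large mixed nerve of the hind limb, was compared between young rats given acrylamide and young rats given saline. The comparison rests on 4 of the 12 arrays of the series, 2 from acrylamide-treated and 2 from saline-treated animals, chosen by the tissue and treatment in their titles. The other arrays, 4 of cerebellum and 4 of spinal cord with the same treatments, entered the same model, supply most of the spread behind its standard errors and p-values, and show where the nerve differed from them. All animals were male Wistar rats with no stated genetic change. The acrylamide group received 30 mg/kg per day by oral gavage for 21 days, and the control group received saline, which 1 label calls solvent. The age at the start is given as 25 days in 1 label and as 3 weeks in another, and 1 label places collection 21 days after treatment, so the time between the last dose and collection is not settled. Each array carried RNA pooled from 2 rats, so the error terms measure the spread between pools. The time of day at which the nerves were taken is not given in the sources used here.

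Acrylamide is a small electrophile that binds thiol groups and is cleared in part by conjugation to glutathione, and repeated exposure is known to damage the far ends of long axons. The cell bodies of those axons lie outside the nerve, so most messenger RNA of a nerve trunk comes from Schwann cells, which build myelin or ensheathe small axons, and from fibroblasts, perineurial cells, vessels and resident macrophages. Schwann cells that lose contact with axons are known to lower myelin and lipid synthesis genes and to express genes such as Ngfr, Gfap and Sox2.

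Signals are given in arbitrary units, 1 per probe set, and the median signal of the 4 nerve arrays lay between 161 and 182. A difference is the mean log2(signal + 16) of the acrylamide arrays less that of the saline arrays, with the standard error of a limma model of all 12 arrays. Of 31042 probe sets, 18267 had a mean signal above 110 over the nerve arrays and were tested, and adjusted p-values are Benjamini-Hochberg values over these. Of the listed genes nearest the filter, Ube2c was just inside with a mean of 112 and Gfra3 just outside with 109.7. The arrays of a gene are said not to overlap where both acrylamide signals were above, or both below, each saline signal. In bulk tissue, fewer cells of a type and less RNA per cell cannot be told apart.

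Both replicate 1 arrays carried transcripts of cerebellar neurons. Over 5 defining genes (Gabra6, Neurod1, Pcp2, Fat2 and En2), the median nerve signal was 12.0% and 17.3% of that in saline cerebellum on saline and acrylamide replicate 1, and 1.22% and 1.07% on saline and acrylamide replicate 2. Fat cell and skeletal muscle genes differed between arrays in another way. The summed signal of 25 fat cell genes was 101808 and 34585 on saline replicates 1 and 2 and 36739 and 44816 on acrylamide replicates 1 and 2, with the brown fat gene Ucp1 under 110 on all 4 arrays. The summed signal of 26 muscle genes was highest on acrylamide replicate 2, at 50104, and between 14794 and 25021 on the other arrays. Macrophage genes (32 genes, summed signal) were highest on saline replicate 1, at 35063, lowest on saline replicate 2, at 15732, and in between, at 25367 and 28129, on the acrylamide arrays. Markers of peripheral myelin were strong on every nerve array. Prx, the periaxin of peripheral myelin, had signals of 19743 and 25095 in saline and 19667 and 18215 in acrylamide. Its mean was 50.1 in saline cerebellum but 6619 in saline cord, so it is not confined to the nerve arrays.

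**Figure D1:**
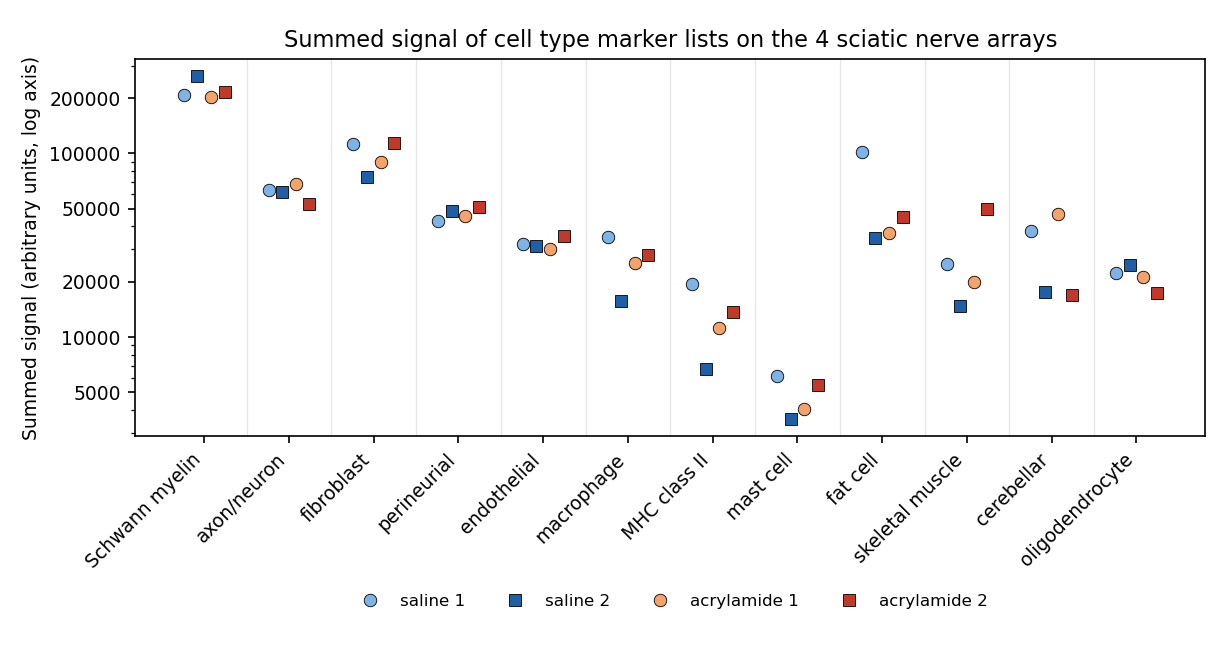
Summed signal (arbitrary units, logarithmic axis) of 12 cell type marker lists on the 4 sciatic nerve arrays, saline in blue and acrylamide in orange and red, circles for replicate 1 and squares for replicate 2. Cerebellar genes separate the replicate numbers, fat cell genes are highest on saline replicate 1 (101808) and muscle genes on acrylamide replicate 2 (50104).

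Few single genes stood out against this spread. By mean difference 50.3% of the probe sets were higher and 49.7% lower in acrylamide. In the limma model 1 of 18267 probe sets, that of the clock gene Nr1d1, passed an adjusted p of 0.05, which is 0.00547% of those tested. A further 1, Ddit4, passed 0.1, and every other probe set named below had an adjusted p of at least 0.345. Without saline replicate 1 the number called was 21, without saline replicate 2 it was 15, and without acrylamide replicate 2 it was 0. At an unadjusted p of 0.05, 498 probe sets were higher (2.73%) and 435 lower (2.38%) in acrylamide, and with each array centred on its median the same counts were 287 and 573. Arrays did not overlap for 2429 probe sets that were higher (13.3%) and 2357 that were lower (12.9%). Within replicate number, the difference had the same sign for 8116 probe sets, or 44.4% (22.6% higher and 21.8% lower in both numbers), and the differences correlated at r = -0.26 across probe sets, which share arrays and are not independent.

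**Figure D2:**
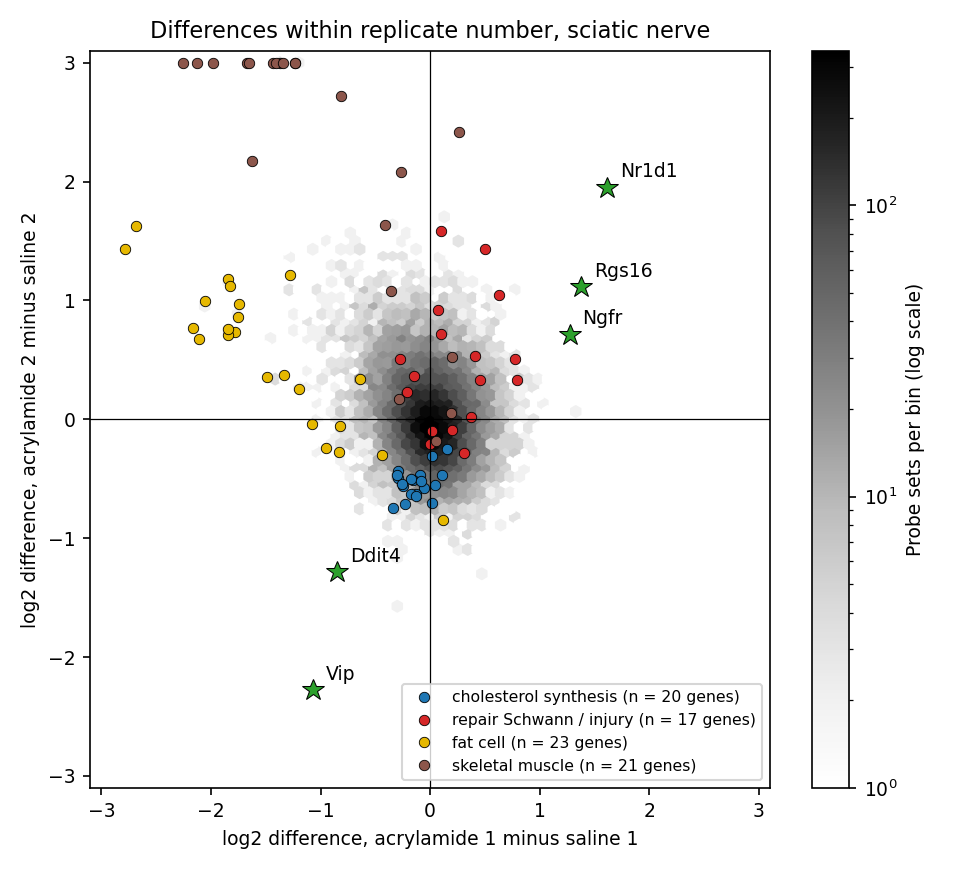
Log2 difference, acrylamide minus saline, of the replicate 2 arrays (vertical axis) against that of the replicate 1 arrays (horizontal axis) for the 18267 probe sets tested (bins from white for 1 probe set to black, logarithmic colour scale), with 4 gene lists (circles) and 5 genes (stars); values beyond 3 are drawn at 3. Most fat cell and muscle genes lie in the upper left quadrant, where the replicate numbers disagree. Nr1d1, Rgs16, Ngfr, Ddit4 and Vip lie where both numbers have the same sign, which the rule that chose them requires.

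The probe set that passed belongs to the circadian clock, the feedback loop in which CLOCK and BMAL1 switch on their own repressors. Nr1d1, which encodes the repressor REV-ERB alpha, rose with acrylamide. Its paralogue Nr1d2 and the output gene Dbp were also higher, and Nfil3 and Cry1 lower, each without passing the adjusted threshold. Transcripts of these genes are known to cycle over the day, and the part of the collection time, which is not known for either group, was not tested. Nr1d1 has promoters with clock motifs, and both are shown because this is the gene that passed. The windows run from 250 bases before to 50 bases after a start site, are taken from RefSeq on assembly GRCr8 and are written 5′ to 3′ on the strand of the gene, with the motif in capitals. The first, chr10:84229405-84229704 on the minus strand, holds the E-box CACGTG, the site bound by CLOCK and BMAL1, at position -191. The second, chr10:84231763-84232062 on the minus strand, holds the related E′-box CACGTT read on the other strand, at position -174.
Nr1d1 window at 84229405: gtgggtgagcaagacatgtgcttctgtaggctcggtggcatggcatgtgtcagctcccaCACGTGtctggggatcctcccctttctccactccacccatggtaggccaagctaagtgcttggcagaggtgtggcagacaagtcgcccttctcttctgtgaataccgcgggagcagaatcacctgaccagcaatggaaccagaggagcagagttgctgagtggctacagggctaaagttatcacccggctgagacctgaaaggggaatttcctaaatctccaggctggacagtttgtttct
Nr1d1 window at 84231763: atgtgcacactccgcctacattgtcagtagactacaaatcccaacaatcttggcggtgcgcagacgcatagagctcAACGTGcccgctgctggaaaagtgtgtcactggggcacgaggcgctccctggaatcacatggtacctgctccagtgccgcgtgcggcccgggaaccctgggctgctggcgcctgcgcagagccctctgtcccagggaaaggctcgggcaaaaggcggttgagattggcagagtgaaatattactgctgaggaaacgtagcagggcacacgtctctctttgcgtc

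Among the clock genes tested, 16 of 20 had a promoter in the table. The E-box was found on either strand in 4 of them (Bhlhe40, Bhlhe41, Nr1d1 and Tef), against 7.08% of all genes, and the E′-box in 3 (Cry2, Nr1d1 and Per2), against 5.30%. The D-box TTATGNAA, bound by DBP and NFIL3, was found in Per2, and the half-site TAGGTCA, bound by REV-ERB and ROR proteins, in Bmal1. These matches describe the letters in the windows and not binding.

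Nr1d1 had signals of 185 and 149 on the saline arrays and of 599 and 622 on the acrylamide arrays. Both acrylamide values lay far above both saline values, and the difference within a replicate number was 1.62 for number 1 and 1.95 for number 2. The log2 difference was 1.78 ± 0.14, a 3.44-fold difference (adjusted p = 0.00866). The call held without either saline array, but the adjusted p was 0.0509 without acrylamide replicate 1 and 0.145 without acrylamide replicate 2, and 0.9998 where the spread came from the 4 nerve arrays alone.

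Nr1d2, which encodes REV-ERB beta, had signals of 1277 and 938 in saline and 1986 and 1637 in acrylamide on its brightest probe set. The acrylamide arrays lay above the saline arrays, by 0.71 ± 0.15 (adjusted p = 0.705), and the other Nr1d2 probe sets tested were higher by 0.81 and 0.63. Without saline replicate 1, the first of these passed the threshold (adjusted p = 0.00771). Dbp, a transcription factor that carries the clock's output to metabolic genes, had signals of 282 and 262 in saline and 425 and 416 in acrylamide. Its arrays were close within each treatment and apart between them, by 0.60 ± 0.10 (adjusted p = 0.558). Per3, of the period family of repressors, had 320 and 382 in saline against 500 and 526 in acrylamide (0.53 ± 0.12). Bhlhe40, a repressor that competes for E-boxes, had 215 and 225 against 293 and 364 (0.54 ± 0.15). For both genes the acrylamide arrays lay above the saline arrays.

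Nfil3, which binds the D-box against Dbp and is a known target of REV-ERB repression, went the other way, with signals of 386 and 324 in saline and 239 and 219 in acrylamide. The arrays did not overlap, and the log2 difference was -0.59 ± 0.15. Cry1, the cryptochrome repressor, had 503 and 511 in saline against 425 and 341 in acrylamide (-0.40 ± 0.11), again with no overlap. Per1 had 410 and 524 against 309 and 275, with a standard error of 0.42 that comes from the spread of all 6 groups. Bmal1 (593, 581, 553 and 622) and Clock (1557, 1612, 1588 and 1557), the activators of the loop, overlapped between treatments. Of the 20 clock genes 1 was called in limma, where 0.00979% of all genes was. Among the 20, 12 had a higher and 8 a lower mean in acrylamide, where 47.4% and 52.6% of all genes did, and the median difference was 0.04 against -0.01 over all 10215 genes tested; the split was 8 higher and 12 lower with each array centred on its median or with the cerebellar share subtracted. Among these clock genes the arrays did not overlap for 8 higher and 3 lower members, where 12.2% and 14.2% of all genes did so.

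**Figure D3:**
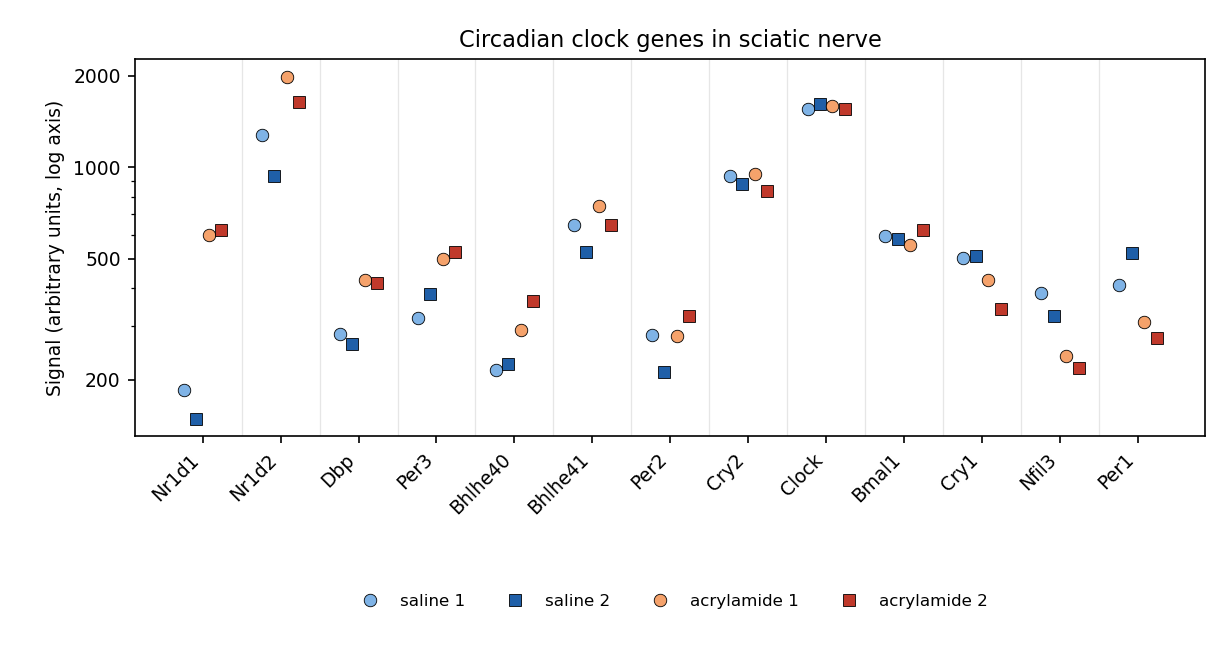
Signal (arbitrary units, logarithmic axis) of 13 clock genes on the 4 sciatic nerve arrays, saline in blue and acrylamide in orange and red, circles for replicate 1 and squares for replicate 2. Nr1d1 lies at 149 and 185 in saline and at 599 and 622 in acrylamide, Nfil3, Cry1 and Per1 are lower in acrylamide, and Clock and Bmal1 overlap.

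Ddit4 encodes REDD1, an inhibitor of the mTORC1 growth pathway that glucocorticoids, low oxygen and fasting are known to induce. It had signals of 2753 and 2900 in saline and of 1525 and 1180 in acrylamide. Both acrylamide arrays lay well below both saline arrays, by -1.07 ± 0.12, a 2.09-fold difference that missed the threshold (adjusted p = 0.0643). The adjusted p was under 0.05 with quantile normalization (0.0419), with 1 probe set per gene (0.0345), without saline replicate 1 (0.0447) and without acrylamide replicate 1 (0.0215). It was 0.0718 without saline replicate 2, 0.172 without acrylamide replicate 2, 0.271 without the trend in eBayes and 0.9998 with the nerve arrays alone.

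Among 15 glucocorticoid-induced genes tested, 5 had a higher and 10 a lower mean in acrylamide, with a median of -0.11, and without saline replicate 1 the split was 7 and 8 with a median of -0.02. Tsc22d3, the glucocorticoid-induced leucine zipper, had 4362 and 4914 in saline against 3930 and 3446 in acrylamide (-0.33 ± 0.10). Nfkbia, the inhibitor of NF-kappaB, had 1027 and 926 against 692 and 807 (-0.38 ± 0.13). Neither gene's arrays overlapped, whereas Fkbp5, a classical glucocorticoid target, was higher on both acrylamide arrays (226 and 145 in saline, 258 and 230.5 in acrylamide).

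Several signalling genes were among those chosen by rank, for the smallest p or the largest smaller within-number difference. Both rules take only genes with the same direction in both replicate numbers, so that agreement is not a finding. Rgs16, which shortens G protein signals, had signals of 178 and 210 in saline and 488 and 473 in acrylamide, with no overlap and a log2 difference of 1.25 ± 0.18 (adjusted p = 0.345). Vip, the gene of vasoactive intestinal peptide, had 189 and 250 in saline and 81.7 and 38.9 in acrylamide, both of the latter under the signal of 110 used as the filter. The difference was -1.67 ± 0.28 (adjusted p = 0.587). Pik3r1, a regulatory subunit of phosphoinositide 3-kinase, had 127 and 401 in saline and 621 and 1171 in acrylamide. Its arrays did not overlap, but they spread so widely within a treatment that the standard error was 0.59 around a difference of 1.83. Bambi, a decoy receptor of the TGF-beta family, had 242 and 143 against 377 and 420 (1.03 ± 0.21), and Hes1, a target of Notch, 487 and 596 against 838 and 859 (0.64 ± 0.13). Of the other genes chosen by the same rule, Tmod3, Tfrc (transferrin receptor), Gbp2 (an interferon-induced GTPase), Eeig2, Timm8a1 and Gpt2 (alanine aminotransferase) were higher, by 0.59 to 1.36. Bambi passed the threshold without saline replicate 1 (adjusted p = 0.0447) and Gpt2 without saline replicate 2 (adjusted p = 0.0185). Mllt11, Macroh2a1 (a variant histone), Ddhd2 (a phospholipase), Avil (advillin of sensory neurons), Atp5f1e (an ATP synthase subunit), Ldhb (lactate dehydrogenase), Dnajb14, Gys1 (glycogen synthase), Adrb3 (the adrenoceptor of fat), Hoxb6, Gk and 6330403K07Rikl were lower, with differences from -1.19 to -0.29. Where these genes have another probe set, it can differ: the dimmer one of Gpt2 was at 0.07, the brighter one of Timm8a1 at 0.10, that of Gk at -0.14, that of Eeig2 at 0.23 and that of Tfrc at 0.25, and the dimmer one of Dnajb14 at 0.41. The mean signal in saline was under the filter of 110 for Timm8a1 (87.9) and Gpt2 (92.1). In acrylamide it was under the filter for Adrb3 (58.9), Gk (88.0) and 6330403K07Rikl (88.8). These genes passed the filter only through the treatment where they were higher.

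Genes listed for Schwann cell repair and nerve injury mostly had higher means, and those of myelin mostly had slightly lower means. The cells that carry the injury genes were not tested. Of 17 repair and injury genes tested, 15 had a higher and 2 a lower mean in acrylamide, with a median difference of 0.39. No member passed the adjusted threshold, 4 were higher at an unadjusted p of 0.05 and 8 were higher with no overlap, where 2.49% and 12.2% of all genes were. The median was 0.20 within replicate number 1 and 0.36 within number 2, with 13 of 17 members higher in each. It was 0.25 without saline replicate 2 and 0.50 without saline replicate 1.

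Ngfr, the low-affinity nerve growth factor receptor p75 that immature and denervated Schwann cells carry, had signals of 152 and 209 in saline and 389 and 352 in acrylamide. Both acrylamide arrays lay above both saline arrays, and the log2 difference was 0.99 ± 0.18 (adjusted p = 0.705). Gfap, the intermediate filament of immature Schwann cells and astrocytes, had 1980 and 1718 in saline against 3405 and 2449 in acrylamide (0.64 ± 0.14). Cerebellar astrocytes express Gfap too, and the difference was 0.78 within number 1, where the cerebellar share was 12.0% and 17.3%, and 0.51 within number 2, where it was 1.22% and 1.07%. Sox2, the factor that keeps Schwann cells immature, had 434 and 579 against 790 and 633 on its brightest probe set (0.48 ± 0.16). The Sox2 arrays did not overlap there, and its dimmer probe sets were at 0.25 and -0.07.

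Tnc, the matrix protein tenascin C, had signals of 853 and 570 in saline and 1211 and 1564 in acrylamide (0.96 ± 0.27). Ccl2, the chemokine that draws monocytes, had 310 and 262 against 487 and 557 (0.83 ± 0.24). Hmga1, a chromatin protein of growing cells, had 271 and 228 against 364 and 337 (0.47 ± 0.15). In each of these genes the treatments did not overlap. Timp1, a metalloproteinase inhibitor, had 3962 and 4385 against 5427 and 5511 (0.39 ± 0.19). Jun, the factor that drives the repair state, overlapped between treatments, with 2198 and 1419 in saline and 1812 and 2019 in acrylamide. Its dimmer probe sets overlapped too, at -0.01 and -0.06. Atf3, a marker of injured neurons and Schwann cells, was at 487 and 613 in saline and at 636 and 622 in acrylamide (0.20 ± 0.21). Gdnf, a growth factor of denervated Schwann cells, was at most at 8.11 on the 4 arrays, and it is 1 of 13 list members that were under the filter and were not tested. Macrophage genes, which overlap with injury, gave summed signals of 15732 to 35063 in saline and of 25367 to 28129 in acrylamide, and their part in these differences was not tested.

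Of 27 myelin genes, 24 had a lower and 3 a higher mean in acrylamide, but the median was only -0.13 and the sign depended on the arrays. Within replicate number 1, 15 members were higher and 12 lower (median 0.03), and within number 2, 1 was higher and 26 lower (median -0.28). Without saline replicate 2 the median was 0.07, with 16 higher and 11 lower. Saline replicate 2 had the highest summed myelin signal, 262150, against 207580 on saline replicate 1 and 203152 and 216382 on the acrylamide arrays. Nfasc, the neurofascin of nodes and paranodes, had 2291 and 3240 in saline against 2007 and 2028 in acrylamide (-0.43 ± 0.14) on its brightest probe set. The other 4 Nfasc probe sets overlapped between treatments, at -0.29, -0.08, 0.20 and 0.13. Fa2h, which makes the hydroxylated lipids of myelin, had 5038 and 7809 against 4863 and 4574 (-0.41 ± 0.17). These were the 2 members with an unadjusted p under 0.05, where 2.49% of all genes were lower at that p. Without saline replicate 1 the difference of Nfasc was -0.68. Pmp22, a structural protein of compact peripheral myelin, had 28299 and 31477 against 24192 and 27888 (-0.20 ± 0.10), and Mbp, the myelin basic protein, overlapped between treatments (-0.13 ± 0.10). The 15 genes of unmyelinating and immature Schwann cells, Ngfr among them, had 8 higher and 7 lower means (median 0.00), and 14 were higher without saline replicate 2. For 7 of 27 myelin genes the arrays were lower with no overlap, where 14.2% of all genes were.

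**Figure D4:**
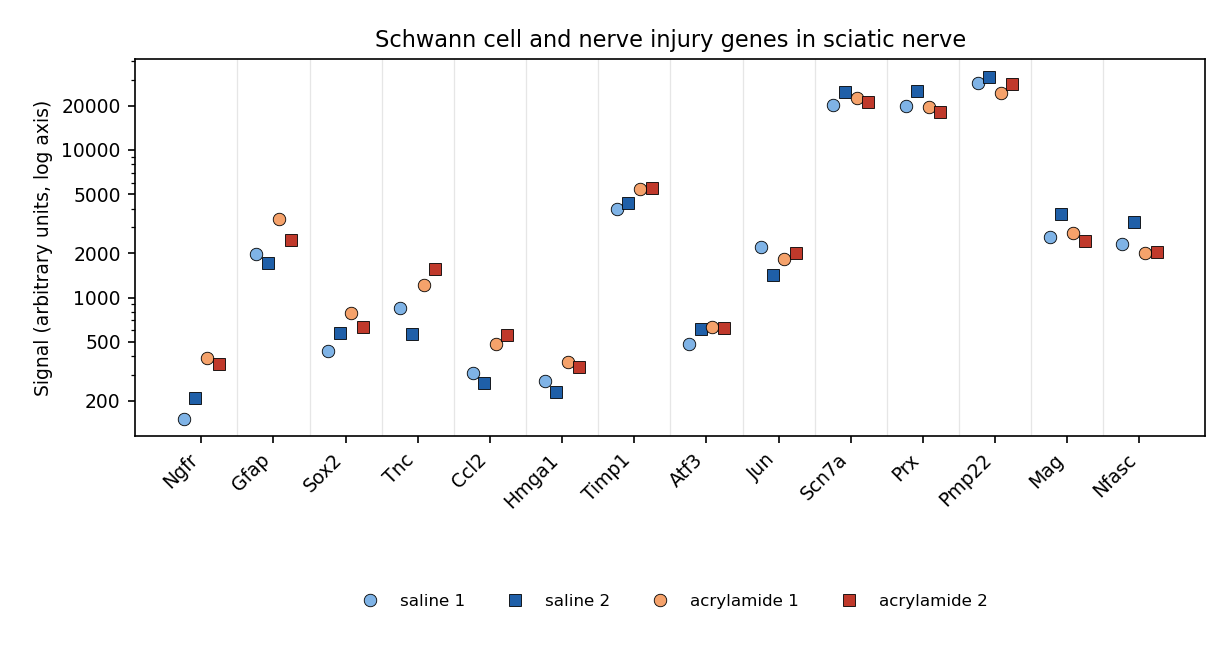
Signal (arbitrary units, logarithmic axis) of 14 Schwann cell and nerve injury genes on the 4 sciatic nerve arrays, saline in blue and acrylamide in orange and red, circles for replicate 1 and squares for replicate 2. Ngfr, Gfap, Sox2, Tnc, Ccl2, Hmga1 and Timp1 and, narrowly, Atf3 have both acrylamide arrays above both saline arrays, Jun and Scn7a overlap, and Prx is highest on saline replicate 2.

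A myelinating nerve uses lipid synthesis heavily, and most genes of that synthesis had a lower mean with acrylamide. All 20 cholesterol synthesis genes tested had a lower mean, with a median difference of -0.35, where 52.6% of all genes tested were lower. None passed the adjusted threshold, 12 were lower at an unadjusted p of 0.05 (2.49% of all genes were) and 15 were lower with no overlap (14.2% of all genes were). Within replicate number 2 all 20 were lower (median -0.53), and within number 1, 15 were lower and 5 higher (median -0.14). Leaving out saline replicate 2 left 16 of 20 lower with a median of -0.12, and leaving out saline replicate 1 left 20 of 20 lower with a median of -0.57. Saline replicate 2, the array with the highest summed myelin signal and the lowest summed fat cell signal, was the highest of the 4 for all 20 genes, and the part of either cell type in the difference was not tested.

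Insig1, which holds the sterol sensor SCAP in the endoplasmic reticulum and is itself induced by SREBP, had signals of 4868 and 6227 in saline and 3856 and 3697 in acrylamide. The arrays did not overlap, and the difference of -0.54 ± 0.11 was the best supported of the list (adjusted p = 0.705 in limma, and 0.0447 without saline replicate 1). Idi1, the isopentenyl diphosphate isomerase, had 8761 and 11532 against 7773 and 7454 (-0.40 ± 0.12). Dhcr7, the last enzyme of the pathway, had 2053 and 2514 against 1660 and 1817 (-0.38 ± 0.12), and Mvk, mevalonate kinase, 834 and 1198 against 707 and 725 (-0.47 ± 0.15). On these probe sets all 3 were lower on both acrylamide arrays. The dimmer probe set of Mvk overlapped between treatments (-0.20 ± 0.25). That of Idi1 was lower with no overlap (-0.33 ± 0.18), with -0.01 within number 1 and -0.66 within number 2. Srebf2, which encodes the transcription factor of the pathway, overlapped between treatments, with 2007 and 2482 in saline and 2228 and 2088 in acrylamide.

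Of 16 fatty acid synthesis genes, 12 had a lower and 4 a higher mean, where 52.6% of all genes were lower, with a median of -0.19. For 7 the arrays were lower with no overlap, where 14.2% of all genes were. The median ranged from -0.08 without saline replicate 2 to -0.28 without saline replicate 1. Fasn, the fatty acid synthase, had signals of 9430 and 9587 in saline and 6877 and 7910 in acrylamide on its brighter probe set. The treatments did not overlap, and the difference was -0.37 ± 0.09 there and -0.41 ± 0.08 on the other probe set. Acaca, which makes the malonyl-CoA that FASN uses, had 3783 and 4388 against 3268 and 3234 (-0.32 ± 0.09). Elovl6, an elongase, had 3980 and 5945 against 3473 and 3764 (-0.43 ± 0.17). On these probe sets both were lower with no overlap. The dimmer probe set of Acaca overlapped between treatments (-0.16 ± 0.22), and that of Elovl6 was lower with no overlap (-0.35 ± 0.17). Srebf1, which encodes the regulator of this pathway, overlapped between treatments (1506 and 1308 in saline, 1435 and 1534 in acrylamide). Fat cells make fatty acids too, and all 23 fat cell genes tested had a lower mean in acrylamide (median -0.53). That list was higher in 17 of 23 genes without saline replicate 1 (median 0.51), and its part in the lipid synthesis differences was not tested.

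The sterol response motif TCACNCCAC, searched on both strands, was in the promoter window of 0 of 16 cholesterol and 0 of 13 fatty acid genes with an entry, and in 1.25% of all genes. No match says only that these letters are not in the window.

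**Figure D5:**
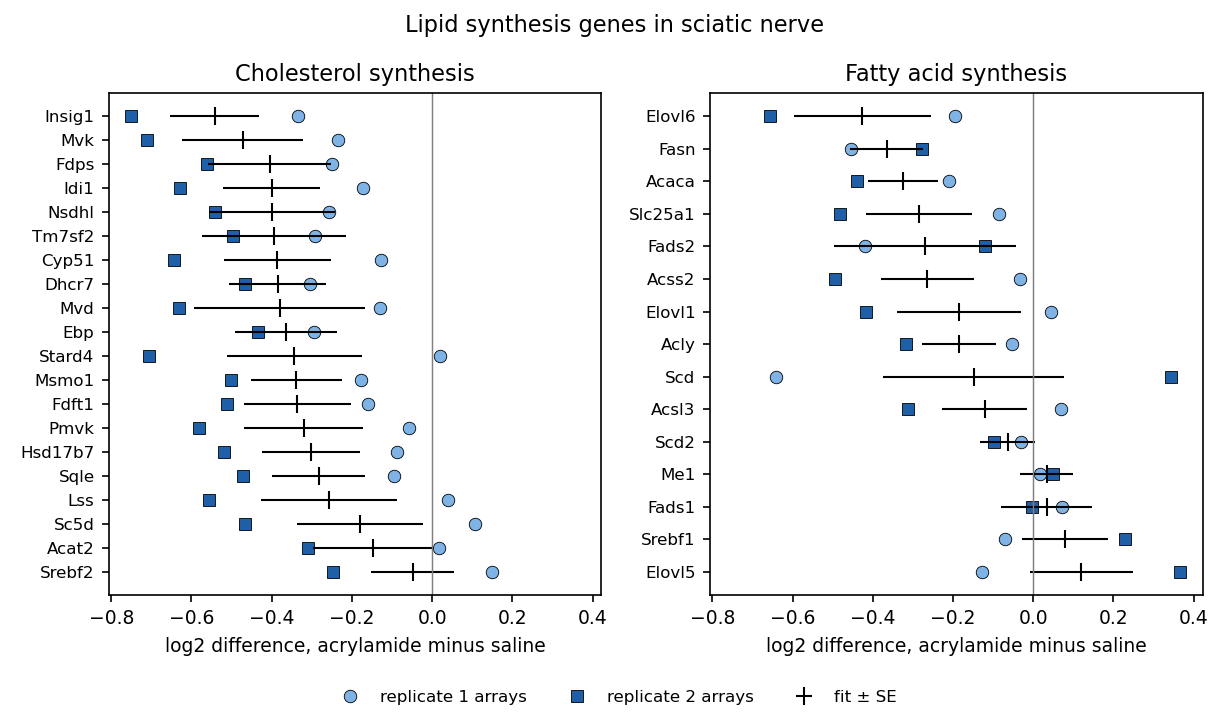
Log2 difference, acrylamide minus saline, of 20 cholesterol synthesis genes (left) and 15 fatty acid synthesis genes (right) in the sciatic nerve; light circles are replicate 1 arrays, dark squares replicate 2 arrays, and bars the limma estimate with its standard error. Thrsp, whose difference was -2.69 in number 1 and 1.63 in number 2, is not drawn. Replicate 2 differences lie below 0 for all 20 cholesterol genes and replicate 1 differences for 15.

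Glutathione transferases join glutathione to electrophiles, and several were higher in the treated nerve. Gstp1, of the pi class, had signals of 6200 and 7601 in saline and 9173 and 10189 in acrylamide. The arrays did not overlap, and the difference was 0.49 ± 0.10 (adjusted p = 0.705). Its promoter window, chr1:210769656-210769955 on the minus strand of GRCr8, is shown because it holds an antioxidant response element, TGACNNNGC, the site of the stress factor NRF2, at position -61.
Gstp1: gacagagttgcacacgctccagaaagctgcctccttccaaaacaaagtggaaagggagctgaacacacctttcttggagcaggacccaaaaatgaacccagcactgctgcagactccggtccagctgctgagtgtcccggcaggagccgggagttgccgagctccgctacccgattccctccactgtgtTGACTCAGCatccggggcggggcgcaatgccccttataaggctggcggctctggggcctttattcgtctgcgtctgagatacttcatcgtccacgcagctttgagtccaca
The motif was found on either strand in 8 of 28 NRF2 and glutathione genes with a promoter, among them Gsta1, Gclm and Txnrd1, against 13.1% of all genes.

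Gstm1, of the mu class, had signals of 1170 and 911 in saline and 1387 and 1246 in acrylamide (0.34 ± 0.12). Gsta1, of the alpha class, had 4719 and 3868 against 5094 and 7188 (0.50 ± 0.18). Srxn1, the sulfiredoxin that repairs peroxiredoxins, had 279.7 and 285 against 337 and 423 (0.40 ± 0.15). None of these overlapped between treatments, though probe sets of transferases can bind transcripts of close relatives. Nqo1, a classical NRF2 target, had 1907 and 2365 against 2416 and 3324 (0.41 ± 0.25), while Hmox1, the haem oxygenase, overlapped (294 and 215 in saline, 288 and 299 in acrylamide). Of 32 genes in the list, 21 had a higher and 11 a lower mean, and the median of 0.06 turned to -0.02, with 15 higher and 17 lower, without acrylamide replicate 2. With each array centred on its median the split was 17 and 15. Arrays were higher with no overlap for 10 members and lower for 3, where 12.2% and 14.2% of all genes were. Of 10 genes of acrylamide metabolism tested, the transferases Gstp1, Gstm1 and Gsta1 among them, 7 had a higher and 3 a lower mean. At an unadjusted p of 0.05, 4 were higher and 1 lower, where 2.49% of all genes were in each direction. Without acrylamide replicate 2 the split of the means was 4 and 6. Cyp2e1, which makes the epoxide of acrylamide, was at most at 89.1 on every array and was not tested. Ephx1, the microsomal epoxide hydrolase, overlapped between treatments (884 and 837 in saline, 806 and 947 in acrylamide). Ephx2, a soluble epoxide hydrolase, had 418 and 339 in saline against 286 and 295 in acrylamide (-0.36 ± 0.15).

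Immediate early genes, which cells switch on within minutes of a stimulus, had a higher mean in 21 of 25 members, with a median of 0.28. None passed the adjusted threshold, and 5 were higher at an unadjusted p of 0.05, where 2.49% of all genes were. With no overlap 12 were higher and 1 lower, where 12.2% and 14.2% of all genes were. The median was 0.15 within replicate number 1, with 16 higher and 9 lower, and 0.50 within number 2, with 20 higher and 5 lower. Dusp6, a phosphatase induced by ERK signalling, had 1281 and 1053 in saline against 1533 and 1797 in acrylamide (0.51 ± 0.12). Egr1, an ERK-induced transcription factor, had 1943 and 669 against 2417 and 3169 (1.27 ± 0.39). The Egr1 arrays did not overlap, but the saline arrays differed from each other more than saline replicate 1 did from acrylamide replicate 1, and without saline replicate 1 the adjusted p was 0.0218. Fos had 768 and 343 against 856 and 1142 (0.92 ± 0.49), with saline replicate 2 again the lowest. Without that array the median of the list was 0.22, with 19 of 25 members higher.

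Perineurial cells form the sheath that separates nerve fibres from their surroundings. Of 11 of their genes tested, 8 had a higher mean, with a median of 0.29, and 7 were higher with no overlap, where 12.2% of all genes were. The median was 0.18 without acrylamide replicate 2 and 0.36 without saline replicate 1. Slc2a1, the glucose transporter GLUT1 of this barrier and of vessels, had signals of 3064 and 3224 in saline and 3886 and 4397 in acrylamide. The values within a treatment were close and the treatments apart, by 0.39 ± 0.09 (adjusted p = 0.705). Slc16a1, the lactate transporter MCT1, had 3712 and 3680 against 4179 and 4497 (0.23 ± 0.07), and Crabp2, a retinoic acid-binding protein, 780 and 1220 against 1476 and 1814 (0.74 ± 0.25). Klf5 had 1907 and 1813 against 2478 and 2814 (0.50 ± 0.36). All 3 were higher with no overlap. Cldn1, with Slc2a1 a defining gene of the list, overlapped on its brightest probe set, at 1910 and 1412 in saline and 1813 and 2572 in acrylamide. Its difference was 0.39 ± 0.23, with -0.07 within number 1 and 0.86 within number 2. The next Cldn1 probe set was higher with no overlap (0.66 ± 0.34), and the dimmest overlapped (0.66 ± 0.44). Of 20 endothelial genes, 12 had a higher mean (median 0.08), but without acrylamide replicate 2 only 8 had (median -0.10). The arrays did not overlap for 6 higher and 2 lower members, where 12.2% and 14.2% of all genes did so. Mmrn2 (0.40 ± 0.13), Ocln (0.29 ± 0.11) and Sox17 (0.29 ± 0.12) were higher. The defining genes Pecam1 (1806 and 1333 in saline, 1281 and 1760 in acrylamide), Vwf and Cldn5 overlapped between treatments.

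Among genes of the axon and its cytoskeleton, the neurofilament genes were higher on the replicate 1 arrays. The summed signal of 25 axonal genes was close on saline replicates 1 and 2, at 63034.5 and 61408.5. On acrylamide replicates 1 and 2 it was 67719 and 53076. Nefl, Nefm and Nefh, the neurofilament subunits, had signals of 258, 508 and 200.2 on saline replicate 2 and of 431, 565 and 148 on acrylamide replicate 2, against 834, 1420 and 1062 on saline replicate 1 and 632, 1118 and 495 on acrylamide replicate 1. The replicate 1 arrays were the higher ones in both treatments, and the 3 genes had no common direction within number 2. In the same order, their means were 2748, 3482 and 4453 in saline cerebellum and 14236, 22466.5 and 15596 in saline cord. The part of transcripts from either tissue in the neurofilament signals was not tested. Prph, the peripherin of peripheral neurons, which the cerebellum expresses little (93.2), had 440 and 364 in saline against 327 and 332 in acrylamide (-0.27 ± 0.37). Tubb3, the neuronal beta tubulin, had 462 and 550 against 368 and 379 (-0.42 ± 0.11), and Tubb2b, a tubulin of growing cells, 1143 and 1322 against 1601 and 1550 (0.35 ± 0.09). In both tubulins the arrays did not overlap. Of the 23 axonal genes tested, 8 had a higher and 15 a lower mean, and the split turned with the arrays. It was 17 and 6 within number 1 and 4 and 19 within number 2, 14 and 9 without saline replicate 1, and 15 and 8 without acrylamide replicate 2.

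The difference in the nerve was then set against the mean difference in cerebellum and spinal cord, as a contrast of the same limma model. No probe set passed an adjusted p of 0.05 (0.0% of 18267, with a smallest adjusted p of 0.686), and 604 had an unadjusted p under 0.05. Nr1d1 had the smallest p (5.12e-05), with differences of 1.78 in nerve, 0.44 in cerebellum and 0.63 in cord (standard error 0.14 each). Ngfr was at 0.99 in nerve and at -0.06 and -0.07 in cerebellum and cord (standard error 0.18 each, unadjusted p of the contrast 0.000866). Ddit4 was at -1.07 in nerve, -0.15 in cerebellum and -0.44 in cord (0.000423), and Rgs16 at 1.25, 0.22 and 0.14 (0.00081). Nr4a3, an orphan nuclear receptor of the immediate early class, was at 0.79 in nerve and at -2.42 in cerebellum and -0.31 in cord (0.000396). Its nerve arrays overlapped (167 and 85.8 in saline, 163 and 295 in acrylamide), and the nerve difference was -0.03 within number 1 and 1.61 within number 2, and 0.37 to 1.21 with 1 array left out. Gstp1 was higher in all 3 tissues, at 0.49 in nerve, 0.38 in cerebellum and 0.35 in cord (standard error 0.10 each). The median of the immediate early list was 0.28 in nerve, -0.20 in cerebellum and -0.22 in cord, and that of the cholesterol list -0.35, -0.10 and -0.14, differences between tissues that were not tested for the lists.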

How the data were processed

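Probe set signals of 12 Affymetrix rat arrays were used, in 6 groups of 2 arrays. The authors deposited linear intensity values from GCOS 1.1, a tool named in the submitters' processing notes. How it was set, with its background correction and scaling, is not given in the sources used here. Each nerve array had a trimmed mean signal of 497 to 498, so the values carry a scaling of whole arrays. RNA of 2 rats was pooled for each array, per the labels. Microarray precision is limited by the number of arrays, and no read depth applies.

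From these values log2(signal + 16) was computed and fitted with limma 3.58.1 in R 4.3.3 (lmFit and eBayes with trend), with 1 mean for each of the 6 groups, 6 residual degrees of freedom and 3.14 prior degrees of freedom. The fit held 21437 probe sets that passed a mean signal of 110 in at least 1 tissue, and p-values are two-sided, adjusted over the 18267 that passed in nerve. A fold on this scale understates the change of dim probe sets. The interaction contrast was the nerve difference minus the mean of the differences in cerebellum and cord. Differences within a replicate number have no test.

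Genes were named through GEO's platform annotation, with symbols updated from RefSeq: of 31042 probe sets 20826 had 1 symbol, 436 several and 9780 none, and only the first kind was named. A probe set with _a, _s or _x near the end of its name may match more than 1 transcript. Each gene of a list is given by its brightest probe set in nerve. The members, the 37 lists and the comparison were chosen with earlier results of these data known, so counts over a list are descriptions. Named genes are the 12 with the smallest p in each direction among probe sets whose arrays do not overlap, the 6 in each direction whose smaller within-number difference was largest, up to 5 members of each list with the smallest p with its defining members, and the 6 with the smallest interaction p; other members were added after their values were seen.

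The fit was tested on simulated data of 18250 probe sets, where 58 of 94 probe sets changed by a log2 difference of 1 and 82 of 90 changed by 2 were called, with 6 unchanged ones. The simulated noise was normal and independent between probe sets. It held no cerebellar, fat cell or muscle differences between arrays, so these counts are not rates for the real arrays. Other normalizations, pseudocounts, filters, variance models, replicate blocks and omission of each nerve array were tried. The alternatives that use 1 replicate number alone for the medians of lists were added after the data were seen.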

Additional observations from a re-analysis of the deposited data

Results flagged for a closer look

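For 7 genes every acrylamide array lay on one side of its group's saline arrays in the nerve and on the opposite side in another tissue. Only genes chosen by rank were searched, by smallest p, largest smaller within-number difference or smallest interaction p. Most of them had been chosen for nerve arrays that do not overlap. The share of all genes with this pattern was not computed, so the count of 7 is a description. The limma contrast of nerve against the mean of both other tissues passed an adjusted p of 0.05 for none of them. The nerve difference minus the cerebellum difference was 0.78 for Nr1d2, of the clock (0.71 in nerve, -0.06 in cerebellum), 1.14 for Bambi, the TGF-beta decoy receptor, and 1.21 for Timm8a1, a mitochondrial import chaperone (0.91 and -0.30). For Timm8a1 the brighter probe set was at 0.10 in nerve. It was -0.79 for Macroh2a1, a variant histone (-0.38 in nerve and 0.41 in cerebellum), -0.41 for the phospholipase Ddhd2 and -0.39 for Ldhb, lactate dehydrogenase B. The unnamed locus LOC102553541 had signals of 96.6 and 107 in saline nerve and 173 and 155 in acrylamide nerve, with a nerve difference that exceeded that in cerebellum by 1.18 and that in cord by 0.96.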

How the results depend on the processing

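Over all alternatives, 2071 values of single genes kept their direction and their side of the threshold, 17 changed sign, 13 passed the threshold where the reported value did not, and 5, all of Nr1d1, no longer passed. The count of 1 called probe set was 2 with quantile normalization, a pseudocount of 64, no filter, robust eBayes, 1 probe set per gene or a threshold of 0.1, 4 with the cerebellar share subtracted, and 0 with the nerve arrays alone or without probe sets higher in cerebellum, where Nr1d1 is not tested. With each nerve array left out in turn it ranged from 0 to 21. The count with an unadjusted p under 0.05, 933, was 1763 with no filter, 326 with the nerve arrays alone, 536 with 1 probe set per gene and 425 without probe sets higher in cerebellum, and ranged from 1196 to 2527 with 1 array left out. The interaction count of 0 was 2 with the cerebellar share subtracted and 0 to 10 with 1 array left out. With 1 array left out, the lone array of its group is assumed to vary like the other groups.

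With the replicate number as a block within tissues, 0 probe sets were called (adjusted p 0.128 for Nr1d1, the smallest, and 0.292 for Ddit4); as a block in the nerve arrays alone, 0 were called and 395 had an unadjusted p under 0.05. Only 2 numbers exist, and they were not taken as a pairing across the series. Deviations of same-numbered arrays correlated at 0.37 between the nerve groups, the highest of all pairs of groups. Between saline cord and acrylamide nerve they correlated at -0.05, a value that cannot decide against a block within the nerve.

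The median of the repair list was 0.20 with a filter of 220 or the replicate 1 arrays alone, and 0.25 to 0.50 with 1 array left out. That of the NRF2 list was 0.27 with the replicate 2 arrays alone, and that of the fatty acid list was -0.077 with the replicate 1 arrays alone and -0.28 to -0.081 with 1 array left out. With 1 array left out, differences near 0 changed sign: Nefl -0.66 to 0.97 (-0.39 with the cerebellar share subtracted), Nefm -0.82 to 0.63, Nefh -1.89 to 0.42, Jun -0.20 to 0.43, Hmox1 -0.0013 to 0.42, Srebf2 -0.20 to 0.10, Srebf1 -0.022 to 0.18, Bmal1 -0.083 to 0.082, Nr4a1 -0.29 to 0.15 and Clock -0.035 to 0.015 (0.0024 with quantile normalization). The cause of these changes was not tested. Probe sets near or under a signal of 110 bound what these arrays can show.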

Other observations

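Genes of protein folding in the endoplasmic reticulum were slightly higher in some members of the treated nerve. Sdf2l1, a partner of chaperones, had signals of 362 and 389 in saline and 470.4 and 528 in acrylamide (0.39 ± 0.11). Hspa5, the chaperone BiP, had 7337 and 6856 against 8130 and 8022 (0.19 ± 0.07), and Calr, calreticulin, 5279 and 5390 against 5836 and 5753 (0.12 ± 0.07). The arrays of these 3 genes did not overlap, and of 22 in the list 7 were higher and 0 lower with no overlap, where 12.2% and 14.2% of all genes were. The means were 14 higher and 8 lower, and 11 each with arrays centred on their medians. Cytosolic heat shock genes had lower means in 12 of 16 members (median -0.07), with no overlap for 5, among them Dnajb1 (1423 and 1537 in saline, 1216 and 1356 in acrylamide), Hspa1a (2136 and 2250 against 1881 and 1957) and Hsp90ab1 (9435 and 9110 against 8843 and 8403). In limma no member of either list passed the adjusted threshold. At an unadjusted p under 0.05, 3 chaperone genes were higher and 0 heat shock genes differed, where 2.49% of all genes were in each direction.

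Cell cycle genes were dim, and 17 of 29 on the arrays were under the filter. Of the 12 tested, 11 had a higher mean (median 0.20). Within number 1, 6 were higher and 6 lower (median 0.03), and within number 2, 12 were higher and 0 lower (median 0.38). Without saline replicate 2 the median was 0.08, with 9 higher and 3 lower. Cdc20, the activator of mitotic exit, had the largest difference, at 130.5 and 118 in saline against 159 and 194 in acrylamide (0.45 ± 0.19). Its other probe set overlapped between treatments (0.32 ± 0.25). Among 28 interferon-induced genes 15 had a higher and 13 a lower mean, and single members differed in opposite directions. Ifit1 had 139 and 154 in saline against 213 and 322 in acrylamide (0.78 ± 0.23), whereas Stat2, the transducer of interferon signals, had 912 and 960.3 against 757 and 593 (-0.47 ± 0.13) on its brighter probe set. Respiratory chain genes had a lower mean in 28 of 38 members with a median of -0.03, and without saline replicate 1 the split was 20 higher and 18 lower. Of 13 pericyte and smooth muscle genes tested, 7 had a higher and 6 a lower mean (median 0.03). The arrays did not overlap for 4 higher and 2 lower members, where 12.2% and 14.2% of all genes did so. Tagln, a marker of smooth muscle, had 3593 and 4059 in saline and 4726 and 5977 in acrylamide (0.48 ± 0.17). Myh11 went the other way with no overlap, at 4252 and 5447 against 3712 and 4044 (-0.31 ± 0.16), and Acta2 and Rgs5 overlapped. Hcn2, a pacemaker channel, had 343 and 285 against 236 and 245 (-0.36 ± 0.11).

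Lists of immune and connective tissue cells had opposite signs within the replicate numbers. The median of 25 macrophage genes was -0.65 within number 1 and 0.87 within number 2, that of 17 fibroblast genes -0.45 and 0.66, that of 7 MHC class II genes -0.72 and 0.94 and that of 6 mast cell genes -0.92 and 1.03.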
